A study of Rattus norvegicus with 6 samples.

Results

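The insulin-like growth factor (IGF) system was examined in primary VSMCs from rat thoracic aorta. The genes were chosen by symbol: the ligands Igf1 and Igf2, the receptors Igf1r and Igf2r, and the binding proteins Igfbp2, Igfbp3, Igfbp4, Igfbp5, Igfbp6 and Igfbp7. Of these 10 symbols 8 are rows of the authors' table of 13526 genes, and Igf2 and Igfbp2 are not listed there and were not analysed here. Both groups held wild-type VSMCs, grown out of the aortic media of male rats after the adventitia and intima had been stripped, in osteogenic media (OM), that is, DMEM with serum, 10 mM β-GP and 3.5 mM CaCl2. The OM plus EMPA group (n = 3) also received 1 μM empagliflozin, an SGLT2 inhibitor given to lower blood glucose, and the OM group (n = 3) did not. Sample titles and table columns shorten the medium to Pi, which the study also uses for inorganic phosphate, a separate stimulus, while the treatment protocol in the labels gives OM, which was followed. The labels give 5 days of treatment, and the study's text gives a different length. VSMCs in complete media without OM were not analysed here, so no value below says what OM itself did. The origin of the 3 samples of a group, 1 culture or animal or several, is not stated, and the p-values below reflect only how these samples varied, which may be technical variation.

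IGF1 and IGF2 are small secreted hormones that act on the tyrosine kinase receptor IGF1R, which signals through IRS adaptors, PI3K and AKT and through the MAP kinases. IGF2R, the cation-independent mannose 6-phosphate receptor, has no kinase: it takes IGF2 to the lysosome and carries lysosomal enzymes there. The IGF-binding proteins hold IGFs outside the cell, prolong their life and either withhold them from the receptor or deliver them to it, and proteases such as PAPP-A release the ligand again. In VSMCs IGF1 is known to promote growth and survival, and in bone IGFBP5 and IGFBP4 are among the binding proteins that osteoblasts make. The serum in the medium brings its own IGFs and binding proteins, which RNA-seq does not see.

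Binding proteins made up the bulk of the summed TPM of the listed IGF genes through Igfbp7, and 1 of them, Igfbp5, rose with empagliflozin. Without Igfbp7 the listed binding proteins summed to means of 130 TPM with empagliflozin and 125 TPM in OM. Igf2r alone averaged 137 and 119 TPM. Igfbp5 was at 2.28 times its OM level in the OM plus EMPA group and was called higher. Igfbp4, Igf2r and the ligand gene Igf1 also lay above the OM libraries in all 3 OM plus EMPA libraries, and Igfbp3 lay below them in all 3, but none of these 4 was called. Groups were apart in this way, in either direction, for 30.4% of all tested genes. Igf1 and Igfbp3 averaged only 0.565 and 1.01 TPM, and Igf1 was not among the tested genes. The signalling receptor Igf1r and the abundant binding proteins Igfbp6 and Igfbp7 overlapped between the groups. Calls came from limma on log2(TPM + 1), fitted over 12564 genes whose mean reached 1 TPM, and needed an adjusted p no larger than 0.05. TPM measures transcript abundance per length and has a fixed total per library, so levels of different genes can be set side by side within a library.

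The stretch upstream of the start site is printed for 4 binding protein genes, because they cover what was seen: Igfbp5, which rose, Igfbp4 and Igfbp3, whose libraries separated upwards and downwards without a call, and Igfbp7, the most abundant. RefSeq promoter sequences were found for 8 of the 8 listed genes. Each line gives the 250 bases before the RefSeq start site on build GRCr8, read 5′ to 3′ on the strand of the gene, with motif matches in capitals. These coordinates cannot be mixed with the authors' table, since no source used here names its build.
Igfbp5, chr9:81914188-81914437, minus strand: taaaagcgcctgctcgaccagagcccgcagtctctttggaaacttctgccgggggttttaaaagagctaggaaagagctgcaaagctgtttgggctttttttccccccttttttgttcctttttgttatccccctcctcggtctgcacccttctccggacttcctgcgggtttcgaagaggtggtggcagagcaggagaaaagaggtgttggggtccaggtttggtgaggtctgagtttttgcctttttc
Igfbp4, chr10:84491221-84491470, plus strand: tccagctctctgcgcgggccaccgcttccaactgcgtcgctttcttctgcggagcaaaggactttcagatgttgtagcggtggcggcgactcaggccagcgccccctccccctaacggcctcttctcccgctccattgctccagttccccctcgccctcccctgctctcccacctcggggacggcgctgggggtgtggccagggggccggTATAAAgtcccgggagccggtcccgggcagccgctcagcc
Igfbp3, chr14:86277945-86278194, minus strand: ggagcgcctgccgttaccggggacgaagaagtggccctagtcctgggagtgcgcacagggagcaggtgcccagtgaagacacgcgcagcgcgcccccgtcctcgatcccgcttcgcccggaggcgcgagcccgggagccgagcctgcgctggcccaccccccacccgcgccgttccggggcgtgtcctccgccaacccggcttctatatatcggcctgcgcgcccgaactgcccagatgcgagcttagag
Igfbp7, chr14:31091486-31091735, plus strand: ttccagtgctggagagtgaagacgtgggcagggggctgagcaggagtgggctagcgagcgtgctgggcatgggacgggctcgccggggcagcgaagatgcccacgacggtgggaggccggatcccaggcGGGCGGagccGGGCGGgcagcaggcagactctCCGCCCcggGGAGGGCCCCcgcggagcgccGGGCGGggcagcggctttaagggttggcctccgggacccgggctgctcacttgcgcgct

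Both strands were searched for a TATA box (TATAAA), a GC box (GGGCGG), an AP-1 site (TGANTCA), a FoxO site (GTAAACA), an E-box (CACGTG) and an NF-kB site. The upstream stretches of Igfbp5 and Igfbp3 held none of these letters. That of Igfbp4 held a TATA box from -40 to -35, where position -1 is the base before the start site, a motif present in 12.9% of all 33469 upstream stretches in the RefSeq table. That of Igfbp7 held 4 GC boxes, found in 30.5% of all stretches, and an NF-kB match on the other strand from -80 to -71, found in 6.33%. Outside the printed genes, Igf2r held 2 GC boxes and 2 E-boxes, Igf1r 1 of each, and Igfbp6 a FoxO match from -221 to -215, a motif found in 3.21% of all stretches (E-box 5.59%, AP-1 6.34%). GC content was 51.6% for Igfbp5 and 46.8% for Igf1, near the median of 51.2% over the table, and 68.8% for Igfbp4, 71.6% for Igfbp3 and 74.4% for Igfbp7. These matches are descriptions of the letters, and no binding was measured.

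The levels spanned from a gene among the most abundant to genes at the edge of detection. Igfbp7, a secreted protein with weak affinity for IGFs, averaged 918 TPM over the 6 libraries and ranked 178th of 13526. Igf2r followed at 128 TPM and Igfbp6, a binding protein that prefers IGF2, at 101 TPM, and their ranges of 117.8 to 147.29 and 86.42 to 114.52 TPM did not overlap. Igfbp4 averaged 23.1 TPM and Igf1r 11.5 TPM, again without overlap. Below them stood Igfbp5 at 2.46 TPM, Igfbp3 at 1.01 TPM and Igf1 at 0.565 TPM, where the order depended on the group. In the OM libraries Igfbp5 (1.28 to 1.85 TPM) and Igfbp3 (1.05 to 1.79 TPM) were within each other's range and Igf1 (0.17 to 0.45 TPM) was lower than both. With empagliflozin Igfbp5 (3.13 to 3.7 TPM) stood apart, and Igf1 (0.63 to 0.99 TPM) and Igfbp3 (0.13 to 0.88 TPM) overlapped. TPM keep no record of read counts, so the number of reads behind the low values is unknown.

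**Figure D1:**
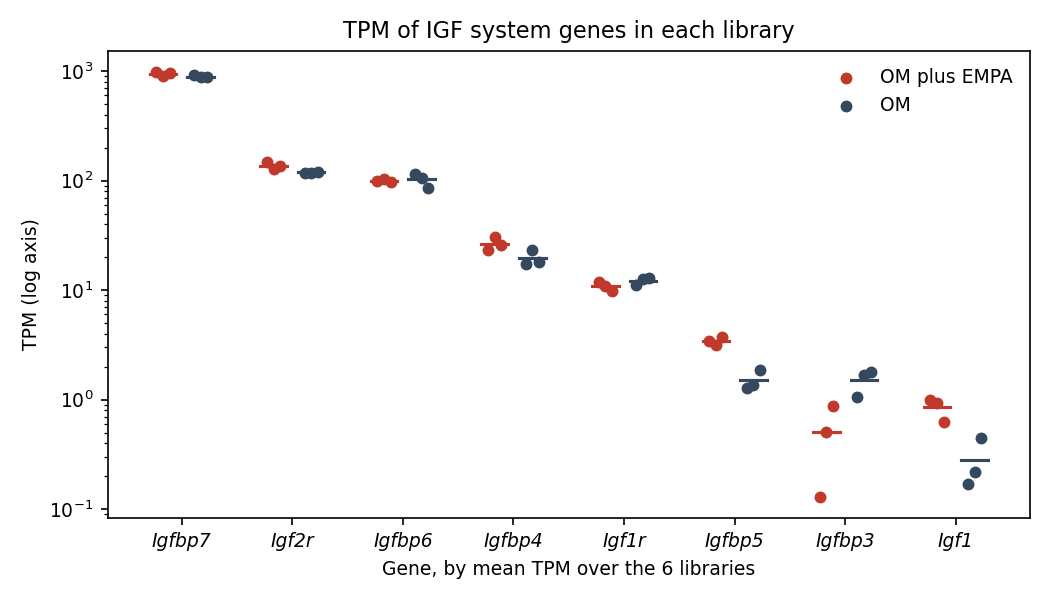
TPM on a log axis of the 8 listed genes in each of the 6 libraries, ordered by mean TPM, with red points for OM plus EMPA, dark points for OM and a short bar at each group mean. Igfbp7 lies near 918 TPM, and Igfbp5 lies between 3.13 and 3.7 TPM with empagliflozin and between 1.28 and 1.85 TPM without it.

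Of the ligands Igf1 alone has values, all below 1 TPM. It was at 0.99, 0.93 and 0.63 TPM in OM plus EMPA replicates 1 to 3 and at 0.17, 0.22 and 0.45 TPM in OM replicates 1 to 3. All 3 empagliflozin libraries were higher than all 3 OM libraries, at levels that ranked Igf1 13061st of 13526 genes. Its group means were 0.85 ± 0.193 TPM (SD, n = 3) and 0.28 ± 0.149 TPM (SD, n = 3). With a mean under 1 TPM it did not enter the test, and without that filter its log2 fold change, computed from log2(TPM + 1), was 0.53 (SE 0.13, adjusted p = 0.0571 from limma), which did not pass. The table places Igf1 on chromosome 7 from 22282930 to 22359296, plus strand, with 4 annotated transcripts.

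The receptors differed in level, with Igf2r above Igf1r in each library. Igf1r, on chromosome 1 from 121550743 to 121831777, was at 11.8, 10.95 and 9.86 TPM with empagliflozin and at 11.09, 12.61 and 12.88 TPM in OM. The groups overlapped, and the log2 fold change was -0.15 (95% interval -0.36 to 0.06, adjusted p = 0.346 from limma). Igf2r, also on chromosome 1, was at 147.29, 128.46 and 135.27 TPM with empagliflozin and at 117.8, 117.84 and 120.83 TPM in OM. Its OM libraries were close together and all lay below the empagliflozin libraries. The log2 fold change was 0.20 (SE 0.05, 95% interval 0.08 to 0.33) and missed the threshold (adjusted p = 0.0693 from limma). It passed when libraries were put on median-ratio scaling (log2 fold change 0.26, adjusted p = 0.0248 from limma) and under upper-quartile scaling. It also passed when mitochondrially encoded genes were left out of the sum (0.23, adjusted p = 0.046 from limma). With the replicate number as a block it passed too (adjusted p = 0.0485 from limma), so in 4 of 14 alternative fits. It missed without a variance trend (adjusted p = 0.139 from limma). When any 1 library was left out it also missed (adjusted p from 0.0641 to 0.165 from limma).

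The ratio of Igf2r to Igf1r TPM is the same under any scaling of the libraries. It was 12.5, 11.7 and 13.7 in the OM plus EMPA libraries and 10.6, 9.34 and 9.38 in the OM libraries, so the groups did not overlap. With 3 libraries a group the exact 2-sided permutation test of such a value cannot go below p = 0.1. The authors' gene model of Igf2r runs from 47954523 to 48067501 and starts 24586 bases before the annotated gene. Across this stretch lie 2 assembled loci with no symbol on the opposite strand, at 12.13 to 13.86 and 2.86 to 4.25 TPM, and neither was called. No source used here says whether the counting used strand. Whether reads from these loci and from Igf2r were told apart where they overlap is therefore unknown.

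Igfbp5, a binding protein that attaches to matrix and bone mineral, was at 3.45, 3.13 and 3.7 TPM with empagliflozin and at 1.28, 1.37 and 1.85 TPM in OM. Every empagliflozin library was above every OM library, with a gap wider than the range within either group. The means were 3.43 ± 0.286 TPM and 1.5 ± 0.306 TPM (SD, n = 3). Its log2 fold change was 0.83 (SE 0.13, 95% interval 0.53 to 1.13, adjusted p = 0.0122 from limma), the 250th smallest p of the 12564 tested genes. It was called in 14 of 14 alternative fits, with adjusted p from 0.00903 to 0.0454 from limma, and with a pseudocount of 0.1 its log2 fold change was 1.15, since a pseudocount of 1 shrinks the change of a gene at this level. The table places it on chromosome 9 from 74448382 to 74465156, minus strand, with 1 transcript.

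Igfbp4, a soluble binding protein that mostly restrains IGFs until PAPP-A cleaves it, was at 23.31, 30.47 and 25.93 TPM with empagliflozin and at 17.4, 23.17 and 18.22 TPM in OM. The groups separated by the narrow step between OM replicate 2 and OM plus EMPA replicate 1. Its log2 fold change of 0.42 (SE 0.13, 95% interval 0.13 to 0.72) missed the threshold (adjusted p = 0.0933 from limma). Of 6 fits with 1 library left out it was called in 1, without OM replicate 2 (log2 fold change 0.54, adjusted p = 0.0428 from limma). The others missed, with adjusted p up to 0.245 from limma. It was also called with the replicate number as a block (adjusted p = 0.00723 from limma), though these numbers are not known to pair samples. It lies on chromosome 10 from 83989591 to 84007225, plus strand.

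Igfbp3, the main carrier of IGFs in blood plasma, had its lower values with empagliflozin. It was at 0.13, 0.51 and 0.88 TPM with empagliflozin and at 1.05, 1.68 and 1.79 TPM in OM, so the groups did not overlap, but the empagliflozin libraries were spread widely. The log2 fold change was -0.75 (SE 0.22, 95% interval -1.27 to -0.24) and did not pass (adjusted p = 0.0901 from limma). Its mean over the 6 libraries was only just above the filter of 1 TPM, through the OM libraries alone, and it fell under the filter when any 1 OM library was left out. With a pseudocount of 0.1 the log2 fold change was -1.60 (adjusted p = 0.124 from limma). Igfbp3 lies on chromosome 14 from 82056347 to 82064083, minus strand.

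The abundant binding proteins showed small differences. Igfbp6 was at 98.46, 103.87 and 97.06 TPM with empagliflozin and at 114.52, 106.07 and 86.42 TPM in OM, where the spread was larger. Its log2 fold change was -0.03 (95% interval -0.25 to 0.19), and it turned to 0.03 under median-ratio scaling. Igfbp7 was at 981.31, 896.42 and 956.6 TPM with empagliflozin and at 914.94, 877.81 and 879.21 TPM in OM. The groups overlapped, and its log2 fold change was 0.08 (95% interval -0.03 to 0.20, adjusted p = 0.336 from limma). The intervals of both genes exclude a change of 1.5-fold. The last bases of the Igfbp7 locus on chromosome 14 overlap Polr2b, a subunit of RNA polymerase II on the opposite strand, which was at 41.08 to 44.62 TPM and 45.63 to 46.28 TPM.

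**Figure D2:**
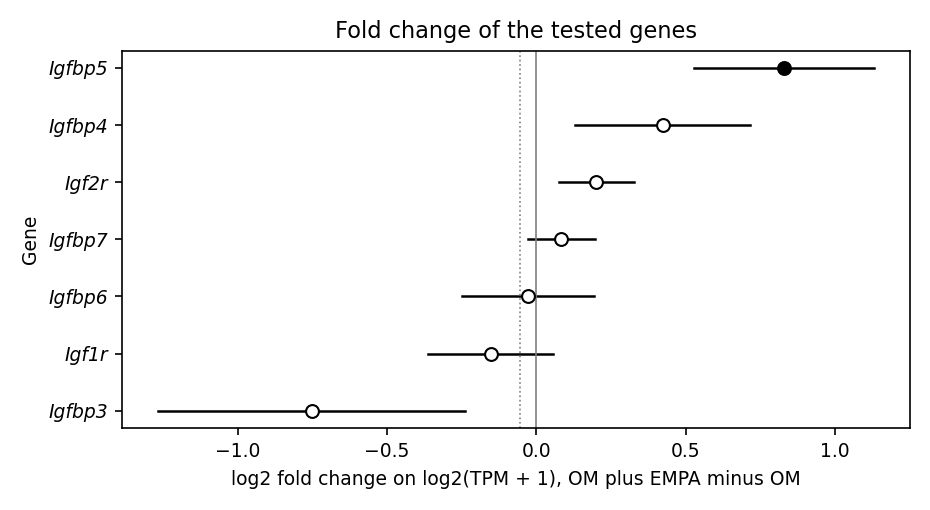
Difference of the group means of log2(TPM + 1), empagliflozin minus OM, for the 7 tested genes, with 95% intervals from limma as lines, a filled point where the adjusted p was 0.05 or less and a dotted line at the median of all tested genes (-0.05). Igfbp5 at 0.83 is the 1 filled point, and Igfbp3 at -0.75 has the widest interval.

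In all, 7 of the 8 listed genes were tested, 1 was called higher, 0 were called lower and 6 did not pass. Over the 12564 tested genes 6.92% were called, 2.06% as higher and 4.86% as lower. Under median-ratio scaling the split of all called genes moved from 259 higher and 611 lower to 393 higher and 380 lower, and the IGF genes called became Igfbp5 and Igf2r. At an unadjusted p under 0.05 limma gave 3 of the 7 as higher and 1 as lower, where it gave 6.42% of all tested genes as higher and 17.6% as lower. Among the tested genes 4 of 7 had groups that did not overlap, and this held for 30.4% of all tested genes. Igfbp3 is 1 of these 4 and the 1 gene given as lower, and it reached the filter only through its OM libraries. Its means were 0.507 TPM with empagliflozin and 1.51 TPM in OM, so its place in these counts depends on the group difference. The median log2 fold change of the 7 was 0.08, against -0.05 over all tested genes.

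**Figure D3:**
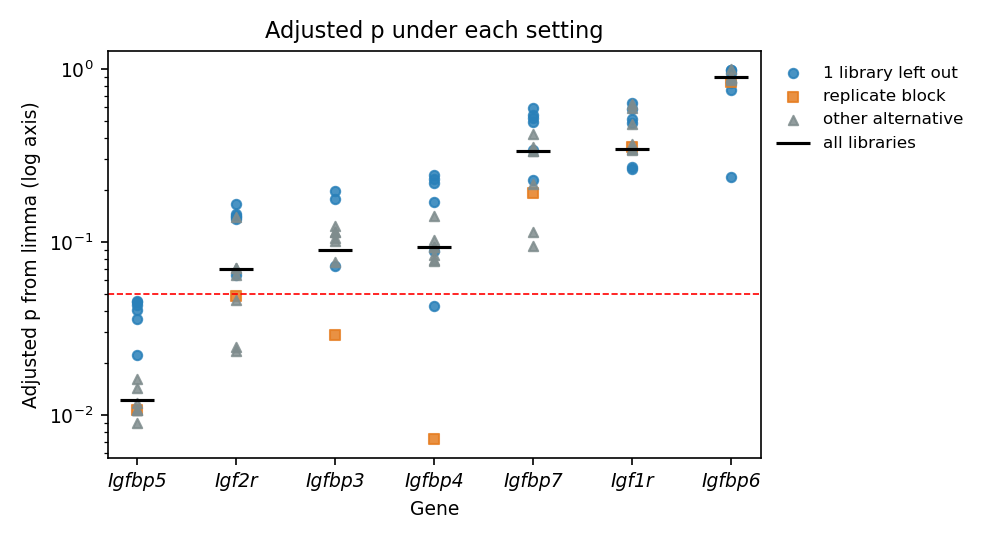
Adjusted p from limma on a log axis for the 7 tested genes, with a black bar for the fit on all libraries, blue circles for fits with 1 library left out, an orange square for the fit with the replicate number as a block and grey triangles for the other alternatives. The red dashed line marks 0.05, and Igfbp5 lies below it in every fit, between 0.00903 and 0.0454.

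The summed TPM of the 5 listed binding proteins was 1107, 1034 and 1084 with empagliflozin and 1049, 1010 and 987 in OM, so the groups overlapped. Igfbp7 supplied 87.9 ± 1.06% of it in the OM plus EMPA group and 87.7 ± 1.15% in the OM group (SD, n = 3). Among the other 4 binding proteins Igfbp6 held 75.3 to 78.5% with empagliflozin and 79.8 to 85.3% in OM. The share of Igfbp4 was 18.6, 22.1 and 20.3% with empagliflozin against 13.0, 17.5 and 16.8%, and that of Igfbp5 was 2.75, 2.27 and 2.90% against 0.953, 1.04 and 1.71%. The share of Igfbp3 was 0.104, 0.370 and 0.690% against 0.782, 1.27 and 1.65%. None of these 4 shares overlapped between the groups, but they are parts of 1 sum and do not move independently. The shares without Igfbp7 were not planned, and the planned ones follow. As shares of all 5 listed binding proteins together, those of Igfbp4, Igfbp6 and Igfbp7 overlapped, and those of Igfbp5 and Igfbp3 did not. Igfbp4 held 2.11, 2.95 and 2.39% of that sum with empagliflozin and 1.66, 2.29 and 1.85% in OM. Igfbp6 held 8.90 to 10.0% with empagliflozin and 8.75 to 10.9% in OM. Igfbp5 and Igfbp3 stood near 1 to 1 in the OM libraries (ratios of 1.22, 0.815 and 1.03), and the ratio was 26.5, 6.14 and 4.20 with empagliflozin, the first of which rests on the 0.13 TPM of Igfbp3 in OM plus EMPA replicate 1.

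**Figure D4:**
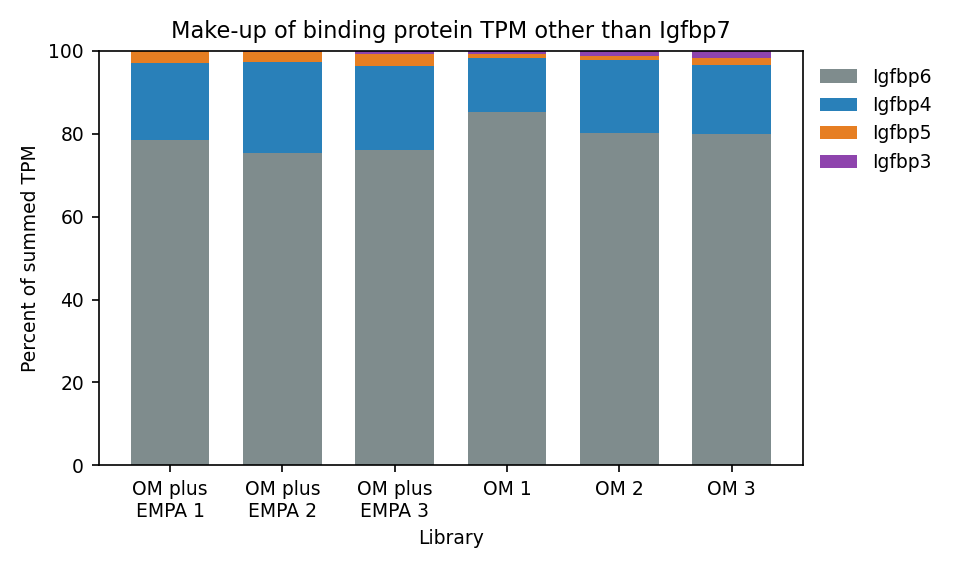
Percent of the summed TPM of Igfbp6, Igfbp4, Igfbp5 and Igfbp3 that each supplied, as stacked bars for the 6 libraries. Igfbp6 fills 75.3 to 78.5% with empagliflozin and 79.8 to 85.3% without it, and the remainder is mostly Igfbp4. In the planned shares, which include Igfbp7, those of Igfbp6 and Igfbp4 overlapped between the groups.

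By the annotation in the table, 7 of the 8 listed genes carry the GO term insulin-like growth factor binding, which 17 genes of the table have. The term insulin-like growth factor II binding is held by 4 genes of the table, Igf2r, Igfbp4, Igfbp5 and Igfbp6. Osteoblast differentiation is annotated to Igf1, Igfbp3 and Igfbp5, which include genes that lay above and below the OM libraries. Of the terms with a direction, negative regulation of osteoblast differentiation is annotated to Igfbp5 and positive regulation to Igf1. Regulation of cell growth is annotated to Igfbp3, Igfbp4, Igfbp5 and Igfbp7.

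The genomic neighbours were looked at in the table. In the RefSeq order Igfbp5 lies next to Igfbp2 and Igfbp3 next to Igfbp1, and neither of these partners is listed in the table. Of 19 rows that overlap the 8 genes or come next to them, 17 were tested and 1 was called, Nt5dc3, the row before Igf1 on chromosome 7 at a distance of 1035556 bases (log2 fold change 0.36, adjusted p = 0.0167 from limma). Top2a, a topoisomerase of dividing cells 12717 bases before Igfbp4, had a log2 fold change of 0.11 (adjusted p = 0.536 from limma). Tns1, the listed gene after Igfbp5 at 1026725 bases, had -0.06 (limma, adjusted p = 0.515). The differences on the log2 scale were 0.21 for Parpbp beside Igf1, -0.13 for Mrpl18 and 0.13 for Map3k4 beside Igf2r, 0.00 for Mospd1 beside Igfbp3, -0.07 for Smarce1 beside Igfbp4, 0.01 for Spryd3 and 0.09 for Csad beside Igfbp6, and -0.09 for Polr2b and 0.04 for Noa1 beside Igfbp7.

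Of the other genes of the system, 101 symbols in 7 lists, 82 were tested, 4 were called higher and 9 lower. Over all tested genes 2.06% were called higher and 4.86% lower. The 9 lower calls became 1 under median-ratio scaling and 0 to 2 with 1 library left out. Among the matricellular CCN proteins, which carry a domain like that of the IGFBPs, Ccn3 was at 2943, 2522 and 2512 TPM with empagliflozin and at 1955, 1829 and 1732 TPM in OM. Ccn2 was at 3093, 3182 and 3445 TPM against 2243, 2556 and 2667 TPM. Both rose on the log2 scale, Ccn3 by 0.53 (limma, SE 0.08, adjusted p = 0.0101) and Ccn2 by 0.38 (limma, SE 0.08, adjusted p = 0.0302), in a list of 7 tested IGFBP relatives with no gene lower. Ccn3 was still called when any 1 library was left out, and Ccn2 was not. Ccn1 (log2 fold change 0.32) and Esm1 (-0.26) did not pass, and Igfbp1, Igfbpl1 and Igfals are not listed in the table. The median over these relatives was 0.19.

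Among 8 tested proteases that cut binding proteins, and their inhibitors, 1 rose and 1 fell. Adamts1, a secreted metalloprotease, was at 122.16, 122.41 and 132.28 TPM against 52.75, 71.75 and 68.43 TPM (limma, log2 fold change 0.97, SE 0.11, adjusted p = 0.0045). Htra1, a secreted serine protease that cleaves IGFBPs, was at 700.11 to 707.18 TPM against 789.52 to 841.86 TPM and fell by 0.20 on the log2 scale (adjusted p = 0.0315 from limma), a call lost under median-ratio scaling and when any 1 library was left out. Stc1 and Stc2, the stanniocalcins that inhibit PAPP-A, were at 26.67 to 53.96 and 1.26 to 2 TPM over the 6 libraries and did not pass. Adam9 and Mmp14 had log2 fold changes of 0.16 and -0.13 and did not pass. Pappa2 is not listed in the table. The PAPP-A gene is listed under its RefSeq synonym Pappa1 and was therefore not counted among these 8. Pappa1 was at 20.11, 18.29 and 20.6 TPM with empagliflozin and at 15.79, 17.36 and 18.79 TPM in OM, with overlap and a log2 fold change of 0.18 (adjusted p = 0.228 from limma).

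In the signal transduction list 1 of 31 tested genes rose and 4 fell, with a median of -0.07 against -0.05 over all tested genes. Grb14, an adaptor that restrains the insulin receptor, was at 147.77, 146.46 and 145.59 TPM with empagliflozin and at 124.01, 123.33 and 114.94 TPM in OM, and rose by 0.28 on the log2 scale (limma, SE 0.04, adjusted p = 0.0116). Tsc2, a brake on mTORC1, fell by 0.27, the adaptor Grb2 by 0.25 and the MAP kinase kinase Map2k1 by 0.21, with adjusted p from 0.0284 to 0.0391 from limma. The 4 lower calls of the list were fewer in other fits: 0 passed under median-ratio scaling and when a library numbered 1 or 3 was left out of either group, and 1 passed when a library numbered 2 was left out. Irs1 was at 3.66 to 4.31 TPM and Irs2 at 6.56 to 7.15 TPM over the 6 libraries, and Akt1, Akt2 and Pik3r1 had log2 fold changes between -0.01 and 0.05. Insr, the insulin receptor and closest relative of IGF1R, was at 7.6 to 8.57 TPM against 7.45 to 8.43 TPM. Of the 4 tested related receptors limma called 0 and gave 1 an unadjusted p under 0.05. This was M6pr, the other mannose 6-phosphate receptor, with a log2 fold change of -0.14 (adjusted p = 0.0918 from limma). Lrp1 and Tmem219, which encode receptors of IGFBP3, had log2 fold changes of 0.08 and 0.02.

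Igf2bp2, which binds the mRNA of IGF2 and other transcripts, was the 1 tested gene of its list, at 8.72, 6.92 and 8.59 TPM against 12.33, 12.05 and 10.76 TPM. Its level fell by 0.49 on the log2 scale (limma, SE 0.10, adjusted p = 0.032), and it was not called when any 1 library was left out. Of the imprinted growth genes only Peg3 (0.16) and Grb10 (0.00) were tested and neither passed. The genes other than those above whose GO annotation names insulin-like growth factors included Bmp2, a bone morphogenetic protein, at 16.45, 8.62 and 16.5 TPM against 31.68, 22.73 and 37.62 TPM (log2 fold change -1.12, adjusted p = 0.0443 from limma), Arrb1, a β-arrestin (-0.50), and Gigyf1, a GRB10-interacting protein (-0.28). In that annotation list 2 of 44 tested genes rose, the CCN genes above, and 4 fell, Htra1 among them, with 0 lower under median-ratio scaling and 0 or 1 lower without 1 library (1 without OM replicate 2).

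**Figure D5:**
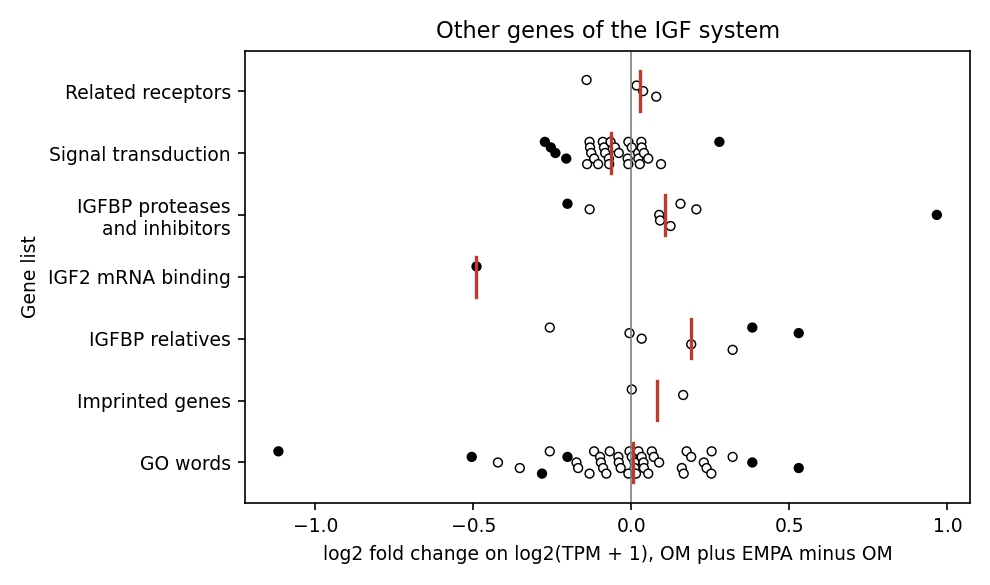
Difference of the group means of log2(TPM + 1), empagliflozin minus OM, for the tested genes of 7 lists, with filled points where limma gave an adjusted p of 0.05 or less, open points for the others and a red bar at each list's median. Adamts1 at 0.97 lies farthest to the right and Bmp2 at -1.12 farthest to the left, and the median of the signal transduction list is -0.07.

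The genes most like Igfbp5 in pattern were found by Euclidean distance between log2(TPM + 1) values centred over the 6 libraries. They were Lvrn, an aminopeptidase (distance 0.24 log2 units), Lpl, lipoprotein lipase (0.28), Klhdc8a (0.28), Adamts1 (0.35) and Mylip, an E3 ligase that degrades the LDL receptor (0.36). Lpl was at 7.01, 6.66 and 7.07 TPM with empagliflozin and at 3.65, 4.08 and 4.1 TPM in OM. All 5 share the group difference with Igfbp5 (log2 fold changes of 0.55 to 0.97), so the likeness rests mainly on the step between the groups.

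Library-wide features moved with the groups as well. Mitochondrially encoded transcripts took 10.3 to 10.9% of TPM with empagliflozin and 8.0 to 9.69% in OM, and with them left out Igfbp5 had a log2 fold change of 0.87. The summed TPM of 8 smooth muscle markers was 3449 to 3971 against 2503 to 3047, with 6 higher and 0 lower. Without Tagln, the most abundant of them, it was 1506 to 1720 against 1090 to 1347. Of the 8 markers, Smtn (log2 fold change 0.15) and Myh11 (-0.17) did not pass. The sum of 6 markers of adventitial fibroblasts was 4774 to 5526 against 6184 to 7017, with 1 higher (Scara5) and 2 lower (Dcn and Pdgfra). Dcn carried most of that difference, and without it the sum was 1015 to 1059 against 1069 to 1078. These sums without 1 marker were added after seeing the data. Of 8 markers of macrophages and leukocytes Cd68 and Cd14 are listed, with sums of 30.1 to 39.99 against 40.5 to 44.3 TPM, Cd68 being lower. None of 7 endothelial markers, including Pecam1 and Cdh5, is listed. The part of these shifts in the IGF values was not tested, and in bulk RNA fewer cells of a type and less RNA per cell cannot be told apart.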

How the data were processed

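RNA-seq of 6 samples of primary rat VSMCs was analysed, 3 per group. The authors deposited TPM of 13526 genes, and fastp, HISAT2 2.0.5, RSEM and DESeq2 appear in the submitters' processing notes, with no step given. Build and strand setting are not given in the sources used here. Positions are those of the authors' table unless GRCr8 is named. The table also holds the authors' own fold changes and p-values, which were not used, nor was a second table selected on them. Every column of sample values had a known sample. TPM keep no depth, so no precision by depth can be given.

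Groups were compared with limma 3.58.1 in R 4.3.3 on log2(TPM + 1) over genes whose mean reached 1 TPM (4 residual and 3.8 prior degrees of freedom, variance trend), with Benjamini-Hochberg adjustment over 12564 genes. The fit was also run on simulated data in which noise was independent between genes. Such data lack the library-wide shifts seen here, and the outcome is not reported. The genes named are the IGF genes listed, the called genes and up to 4 with the smallest p of each list, the 5 genes nearest to each called IGF gene, and listed neighbours. Other genes named to fill a role (Irs1, Irs2, Akt1, Akt2, Pik3r1, Stc1, Stc2, Pappa1) were added after their values were seen, and some genes the rule takes are not reported here. The members and lists were chosen with earlier results of these data known. Alternatives were a pseudocount of 0.1, other filters, 3 other scalings, the replicate number as a block, no variance trend, other thresholds and each library left out. Python 3.11.15 with pandas 2.3.3 and matplotlib 3.10.9 was used for summaries.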

Additional observations from a re-analysis of the deposited data

How the results depend on the processing

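Igfbp5 was called in all alternative fits at an adjusted p of 0.05, and at an adjusted p of 0.01 limma called 0 IGF genes higher, against 3 at an unadjusted p under 0.05 (6.42% of all tested genes were higher by that rule). The number of IGF genes called higher was 3 at an adjusted p of 0.1, 2 under median-ratio scaling, upper-quartile scaling or without mitochondrially encoded genes, and 1 to 2 with 1 library left out, the second being Igfbp4 without OM replicate 2 (0.54). At an adjusted p of 0.1, 1 was lower, Igfbp3. Igf2r passed at 0.26, 0.27 and 0.23 on the log2 scale under the 3 scalings in that order. Igfbp6 changed sign, to 0.032, 0.038 and 0.00101 under these scalings and to 0.059 and 0.0038 without OM replicate 1 or 2. Igf1r, Igf2r, Igfbp4, Igfbp5 and Igfbp7 kept their direction in all 14 alternative fits. Igfbp3 kept its direction in the 10 that tested it, among them 3 of the 6 with 1 library left out. It was tested only with all OM libraries present, so its direction was not checked without any of them. With 1 library left out Igfbp4 ranged from 0.32 to 0.54 and Igfbp6 from -0.14 to 0.059.

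The replicate numbers of the titles are not known to pair samples. Deviations of same-numbered libraries correlated at 0.10, 0.16 and 0.06 across genes, and every library correlated best with its own number. With the replicate block 3 IGF genes were higher and 1 lower: Igf2r (0.20), Igfbp4 (0.42) and Igfbp3 (-0.75) passed beside Igfbp5. Over all genes 449 were higher and 951 lower with the block, and over the lists 8 were higher.

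Over all tested genes 460 were higher and 1090 lower at an adjusted p of 0.1, 35 and 159 at 0.01, 66 and 183 at 1.5-fold, 393 and 380 under median-ratio scaling, 404 and 382 under upper-quartile scaling, 154 and 366 without variance trend, and 80 to 216 and 245 to 438 with 1 library left out (fewest without OM plus EMPA replicate 2). Over the lists 7 were higher at an adjusted p of 0.1, 1 was higher and 0 lower at 0.01, 1 and 1 passed at 1.5-fold, and the 9 lower genes became 1 under median-ratio or upper-quartile scaling, 4 without mitochondrially encoded genes or variance trend, and 0 to 2 with 1 library left out. The causes were not tested. The Igfbp3 share of summed binding protein TPM in the OM plus EMPA group, 0.0474%, became 0.0305% without replicate 3 and 0.0652% without replicate 1.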
